A study of Homo sapiens with 4 samples.

Results

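The inhibitor of apoptosis (IAP) genes and their antagonists were followed in A549 cells, a human lung adenocarcinoma line, with and without embelin. The genes were XIAP, BIRC2, BIRC3, BIRC5, BIRC6, BIRC7 and NAIP among the inhibitors, and DIABLO, HTRA2 and XAF1 among the antagonists. Their probes were found by gene name, by the older name BIRC4 for XIAP, or by a RefSeq transcript of the gene. These 10 genes had 14 of the 50238 probes on the array, which name 30970 genes or transcripts in all. Both groups were kept in medium with 2% FBS for 12 h before the treatment. The control group was left untreated for 4 h and no vehicle is named for it, and the embelin group received 15 µM embelin for 4 h. Each group had 2 samples with 1 single-colour array each. Nothing in the labels says that replicates came from separate cultures, so the p-values measure only the spread between these samples, which may be technical. As in any bulk culture, less RNA per cell and fewer cells that make the RNA cannot be told apart.

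IAP proteins carry baculovirus IAP repeats, by which XIAP binds and blocks caspases directly, whereas the cIAP proteins made from BIRC2 and BIRC3 act mainly as ubiquitin ligases in TNF receptor and NF-kB signalling. SMAC (the product of DIABLO) and HTRA2 are released from mitochondria in dying cells and displace caspases from the IAPs. Embelin is a benzoquinone known as a small-molecule ligand of XIAP. The arrays measured transcripts, so binding of embelin to the XIAP protein was not measured.

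All 4 arrays came from 1 slide and 1 scan, and control arrays lay in columns 4 and 1 of the slide and embelin arrays in columns 2 and 3. The arrays had like levels of local background (median of 23 to 25 intensity units) but differed in the share of probes called well above it, which was 66.7% on control replicate 1 and 66.4% on embelin replicate 2 but 50.3% on control replicate 2 and 51.2% on embelin replicate 1. The gene values of the arrays correlated at r = 0.973 within the control group, r = 0.972 within the embelin group and 0.926 to 0.968 between the groups. All 10 epithelial markers checked for A549 were well above background on every array. Of 12 markers of blood, endothelial and fibroblast cells, 2 were above background on all arrays (CD14 and COL1A1) and 3 on none, among them CDH5 and DCN.

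Each of the 14 probes is a 60-base oligonucleotide printed as 1 spot, so every value below comes from 1 spot per array. No spot of these probes was marked as an outlier by the scanner software. The sequences of 5 probes follow as they were printed on the array, in lower case and 5′ to 3′, because each transcript level given for these genes is the signal of that sequence alone.
XIAP probe: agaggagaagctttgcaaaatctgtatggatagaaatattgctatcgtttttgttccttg
BIRC2 probe: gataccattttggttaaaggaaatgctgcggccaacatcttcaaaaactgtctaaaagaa
BIRC6 probe: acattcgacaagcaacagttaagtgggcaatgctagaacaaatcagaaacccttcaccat
BIRC7 probe: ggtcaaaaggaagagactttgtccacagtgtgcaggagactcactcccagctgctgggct
HTRA2 probe: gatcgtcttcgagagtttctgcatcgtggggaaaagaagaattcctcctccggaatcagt

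Because BIRC3 had the largest difference of the group, the 250 bases before its transcription start are also given, from the RefSeq promoter table (build GRCh38.p14, chr11:102317234-102317483, plus strand). Capitals mark both matches to the NF-kB consensus, which read in the consensus direction on the minus strand and end 189 and 125 bases before the start.
BIRC3 upstream: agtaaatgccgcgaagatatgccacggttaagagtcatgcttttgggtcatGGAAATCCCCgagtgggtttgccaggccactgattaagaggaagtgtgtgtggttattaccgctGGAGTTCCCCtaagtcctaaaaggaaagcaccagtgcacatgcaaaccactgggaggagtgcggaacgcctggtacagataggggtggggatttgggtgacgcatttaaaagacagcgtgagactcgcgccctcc

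The promoter table held 8 of the 10 genes, all but BIRC5 and NAIP, with 17 start sites. On either strand, 3 of these 17 upstream windows matched the NF-kB consensus, 1 each of BIRC3, BIRC6 and XAF1, and 5.21% of the 35116 windows of all genes did. The interferon-stimulated response element, searched as GAAANNGAAA on both strands, was in none of the 17 windows and in 3.02% of all windows. A match is a description of letters and not of binding.

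Of the 10 genes, 8 were well above background on all 4 arrays and were tested, and NAIP and XAF1 were not. None of the 8 was called at an adjusted p under 0.05 by limma, at which 1.81% of the 17649 genes tested were called, 1.25% higher and 0.561% lower with embelin. At an unadjusted p under 0.05, 3 of the 8 were higher (BIRC2, BIRC3 and BIRC7) and 0 were lower, beside 8.36% and 11.1% of all genes. The study's text names a 2-fold change with a p under 0.05 and no adjustment for the number of genes. BIRC3 and BIRC7, both higher, passed a 2-fold change with limma's unadjusted p under 0.05, and so did 8.26% of all genes in either direction and 4.26% of all genes in the higher direction. Without control replicate 1, XIAP also passed it. In XIAP, BIRC2, BIRC3 and BIRC7 both embelin arrays lay above both control arrays, as in 21.1% of genes, and in 7 of 8 genes the groups did not overlap in either direction, as in 51.8% of genes. The median difference of the 8 genes was 0.27 on the log2 scale, and that of all genes tested was -0.06.

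**Figure D1:**
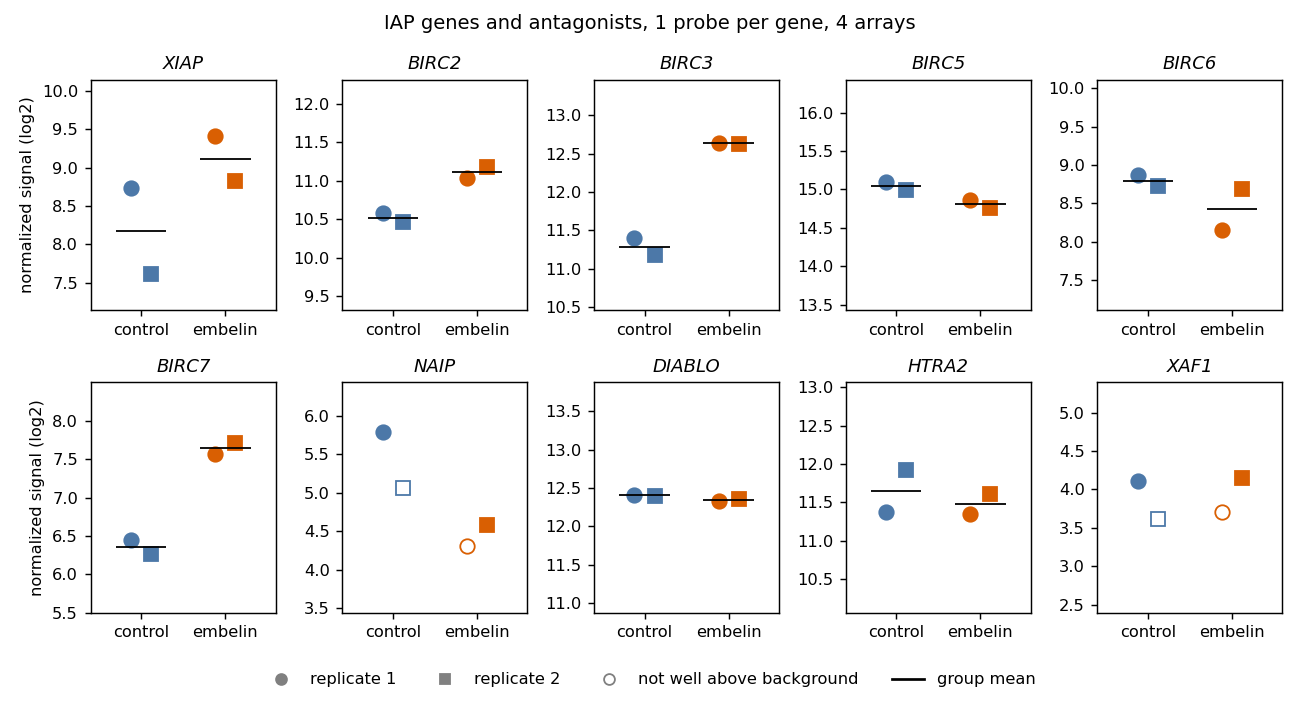
Normalized signal (log2, vertical axis) of each gene on the 4 arrays, with blue for control and orange for embelin, circles for replicate 1 and squares for replicate 2, and a line at each group mean of a tested gene. Every panel spans the same number of log2 units around its own centre, open symbols are spots not well above background, and BIRC3 and BIRC7 show the clearest separation of the groups while NAIP and XAF1 (the probe above background on the most arrays) are partly unmeasured.

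XIAP is the IAP that inhibits caspases directly and a reported target of embelin, among others. In the control samples it read 8.73 and 7.61 (log2), and after embelin 9.41 and 8.82. Both embelin arrays were above both controls, but control replicate 1 and embelin replicate 2 nearly met. The difference of 0.95 ± 0.47 (log2, SE, n = 2 per group) had a 95% interval of -0.33 to 2.22 and an adjusted p of 0.367 (limma). With 2 arrays per group it was therefore not told apart from 0. The control arrays of XIAP differed from each other more than in most genes, with an SD of 0.79 that 6.35% of genes exceeded. Between the arrays with more probes above background (embelin replicate 2 minus control replicate 1) the difference was 0.09, and between those with fewer (embelin replicate 1 minus control replicate 2) it was 1.80. Between arrays of the same replicate number it was 0.68 and 1.21. Without control replicate 2 it was 0.39 and without control replicate 1 it was 1.51. The local background around the XIAP spot was marked as uneven on embelin replicate 1, the only mark of unevenness among the 56 spots of these genes, with a median of 36.0 there and 22.0 to 23.0 intensity units on the other arrays. Without that array the difference was 0.65.

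BIRC3 encodes cIAP2, a ubiquitin ligase and known NF-kB target gene, and its upstream sequence is shown above. The controls gave 11.40 and 11.17 in log2, and embelin gave 12.64 and 12.63. The groups were far apart beside the distance within each. The signal was 2.55-fold higher with embelin (95% interval 1.83 to 3.55), a log2 difference of 1.35 ± 0.17 (SE, n = 2 per group). With limma p was 0.00127 and the adjusted p was 0.0547, just beyond the threshold, and 7.35% of all genes differed by more. The difference was 1.23 between the arrays with more probes above background and 1.47 between those with fewer. Under 3 other settings of the fit BIRC3 was called, with adjusted p down to 0.00772, and over all settings the adjusted p ranged up to 0.418.

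BIRC2 encodes cIAP1, which shares with cIAP2 the TRAF2-bound complex, and it is the gene next to BIRC3 on chromosome 11. Signals of 10.58 and 10.46 (log2) in control cells stood against 11.04 and 11.19 after embelin. Replicates were near each other and the groups did not overlap. The signal was 1.51-fold higher with embelin (95% interval 1.09 to 2.08), a log2 difference of 0.59 ± 0.17 (SE, n = 2 per group). With limma p was 0.0236 and the adjusted p was 0.180. The same pairs of arrays gave 0.60 and 0.58, which are close to each other where those of XIAP were apart.

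BIRC7 encodes livin, an IAP known mainly from melanoma and fetal tissue. In the control samples it read 6.45 and 6.27 (log2), and after embelin 7.57 and 7.71. The 2 groups did not overlap, and replicates lay close together. The signal was 2.43-fold higher with embelin (95% interval 1.74 to 3.40), a log2 difference of 1.28 ± 0.18 (SE, n = 2 per group). With limma p was 0.00163 and the adjusted p was 0.0594. The array pairs gave 1.26 and 1.30. BIRC7 was close to the lower end of what the noisier arrays could measure, where the lowest signals well above background were 5.85 and 5.97 in log2. With the background corrected from the unprocessed spot means (normexp) the log2 difference was 0.85, below 2-fold.

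BIRC5 encodes survivin, a member of the chromosomal passenger complex that is made mostly by dividing cells. The controls gave 15.09 and 15.00 in log2, and embelin gave 14.86 and 14.76. Both embelin arrays were below both controls, by a log2 difference of -0.23 ± 0.16 (SE, n = 2 per group) with a 95% interval of -0.68 to 0.22 and an adjusted p of 0.508 (limma). As a fold the interval ran from 0.625 to 1.16, which leaves out a 2-fold change in either direction.

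BIRC6 encodes the giant IAP with ubiquitin-conjugating activity. Signals of 8.86 and 8.73 (log2) in control cells stood against 8.16 and 8.69 after embelin. Embelin replicate 2 lay next to the controls and embelin replicate 1 was apart from them. The log2 difference was -0.37 ± 0.25 (SE, n = 2 per group), with a 95% interval of -1.05 to 0.30 and an adjusted p of 0.481 (limma). It was -0.10 without embelin replicate 1 and -0.64 without embelin replicate 2.

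NAIP, a sensor of bacterial proteins in the inflammasome, had 3 probes, and none was well above background on both arrays of a group. The brightest read 5.80 and 5.06 (log2) in the controls, then 4.31 and 4.58 after embelin, and only control replicate 1 and embelin replicate 2 were above background. The other probes were above it on no array. NAIP has near-identical copies in the genome, so its probes may not be specific to it, and no difference between the groups was tested.

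Among the antagonists, DIABLO (SMAC) had the smallest difference of the 8 tested genes. In the control samples it read 12.41 and 12.40 (log2), and after embelin 12.34 and 12.36. The log2 difference was -0.06 ± 0.16 (SE, n = 2 per group) with a 95% interval of -0.49 to 0.37 and an adjusted p of 0.887 (limma), and this difference equals the median of all genes to 2 decimals. As a fold the interval ran from 0.714 to 1.29.

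HTRA2 encodes a mitochondrial serine protease that also binds IAPs once released. The controls gave 11.38 and 11.92 in log2, and embelin gave 11.35 and 11.60, and the groups overlapped. The log2 difference was -0.17 ± 0.26 (SE, n = 2 per group) with a 95% interval of -0.89 to 0.54 and an adjusted p of 0.777 (limma). Its sign differed between the array pairs, at 0.23 between the arrays with more probes above background and -0.57 between those with fewer, whereas arrays of the same replicate number gave -0.02 and -0.32. The scanner software marked the local background of the HTRA2 spot as unlike that of other spots on control replicate 2 and embelin replicate 2, and without control replicate 2 the difference was 0.10.

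XAF1, an antagonist of XIAP and an interferon-stimulated gene, had 3 probes, none of them well above background on both arrays of a group. The probe above background on the most arrays read 4.11 and 3.61 (log2) in the controls, then 3.70 and 4.15 after embelin, with control replicate 1 and embelin replicate 2 above background. Another probe gave 3.39 and 3.79 with control and 5.52 and 3.80 with embelin, above background on no array. No level of XAF1 was therefore compared between the groups.

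**Figure D2:**
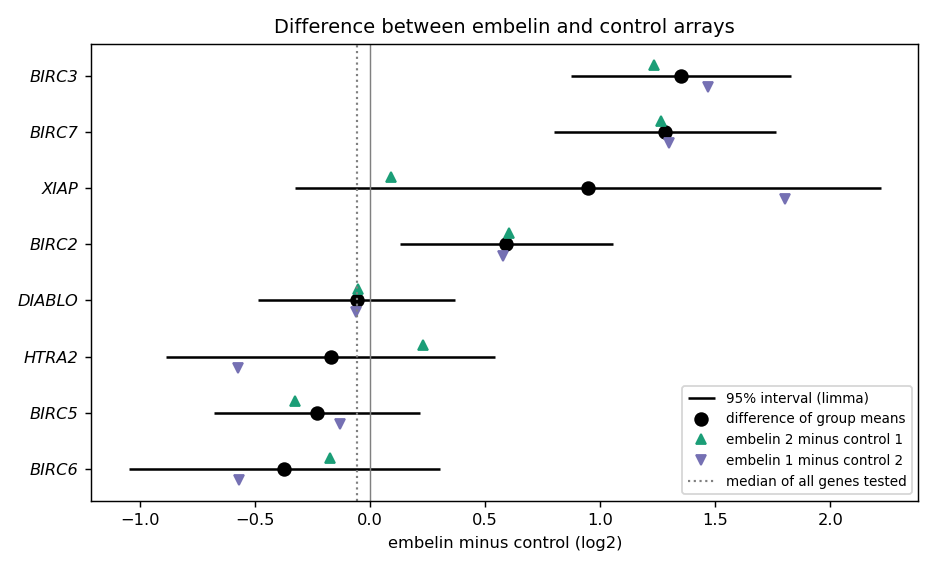
Difference between embelin and control (log2, horizontal axis) of the 8 tested genes, with the 95% interval from limma (line), the difference of group means (black point) and the differences within 2 pairs of arrays (triangles, pairs with a like share of probes above background). The intervals of BIRC3, BIRC7 and BIRC2 lie above 0, the triangles of XIAP stand at 0.09 and 1.80, and the dotted line is the median of all genes tested at -0.06.

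The genes around the IAPs were read from 7 lists with 76 tested genes. TRAF1 and TNFAIP3 stood in 2 lists and were counted once. Of the 76, 4 were called higher and 4 lower (limma, adjusted p under 0.05), beside 1.25% and 0.561% of all genes. The lists were chosen with earlier results of these data known, so these counts are no independent evidence. With the replicate number in the fit as a block, limma called 0 of the 76 genes and also 0 of the 17649 genes tested. The caspases and apoptosome genes that XIAP acts on, 5 genes in all, had 0 calls, and their median difference was 0.21. CYCS (cytochrome c) was at 0.42 (adjusted p = 0.293) and APAF1, the scaffold of the apoptosome, at 0.21 (adjusted p = 0.535). Of 4 further regulators of IAPs, 2 were tested and 0 called, AREL1, a ubiquitin ligase acting on IAP antagonists, at -0.44 (adjusted p = 0.266) and GSPT1, whose processed form binds IAPs, at -0.22 (adjusted p = 0.770). BIRC8 and SEPTIN4 did not pass the filter on dim probes.

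Among 17 partners of the cIAPs in TNF receptor signalling, 1 was called higher and 0 lower, beside 1.25% and 0.561% of all genes. Their median difference was -0.09. TRAF1, an adaptor that binds the cIAPs together with TRAF2, had log2 signals of 7.60 and 7.60 with control and 9.01 and 9.23 with embelin, and rose by 1.52 (adjusted p = 0.0480). TNFAIP3 (A20), a deubiquitinase that restrains NF-kB, was at 1.51 (adjusted p = 0.0927) and the receptor TNFRSF1A at -0.98 (adjusted p = 0.254). The kinase MAP3K14 (NIK), which the cIAPs mark for degradation, was at -0.91 (adjusted p = 0.0966) and TRAF2 at -0.71 (adjusted p = 0.126); both were chosen after their values were seen.

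BIRC3 was read beside 18 other NF-kB target genes, with a median of 0.69. Of these, 3 were called higher and 0 lower, beside 1.25% and 0.561% of all genes. At an unadjusted p under 0.05, 10 were higher and 5 lower, beside 8.36% and 11.1% of all genes. The 10 include the chemokine CXCL8, at 1.64, which had only 1 of 2 control arrays well above background. CXCL8 passed the filter through the embelin group alone, where it was high. The size of its rise is uncertain, and both the count of 10 and the median of 0.69 include it. ICAM1, an adhesion molecule, had log2 signals of 8.56 and 8.61 with control and 10.39 and 10.59 with embelin, and rose by 1.91 (adjusted p = 0.0361). RELB, a subunit of NF-kB, rose by 1.46 (adjusted p = 0.0480), and TRAF1 is given above. Among those below the controls, chosen after their values were seen, were the chemokine CXCL1 at -1.11 (adjusted p = 0.0765) and the cytokine IL6 at -1.07 (adjusted p = 0.0763).

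BIRC5 was read beside 8 genes of the passenger complex and of mitosis. Of these, 0 were called higher and 1 lower, beside 1.25% and 0.561% of all genes. All 8 had both embelin arrays below both controls and 7 had an unadjusted p under 0.05, with a median difference of -0.89. Over all genes, 30.7% had both embelin arrays below both controls, 11.1% were lower at that p, and the median was -0.06. INCENP, the scaffold to which survivin binds, had log2 signals of 11.36 and 11.33 with control and 9.72 and 9.32 with embelin, and fell by 1.83 on the log2 scale (adjusted p = 0.0480). CDCA8 (borealin), another subunit, was at -1.18 (adjusted p = 0.0599) and the motor KIF11 at -1.04 (adjusted p = 0.0836). AURKB, the kinase of the complex, chosen after its value was seen, was at -0.86 (adjusted p = 0.216). The difference of BIRC5, at -0.23, was closer to 0 than that of any of the 8, which ran from -1.83 to -0.56, but this distance was not tested.

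Of 7 genes of the inflammasome around NAIP, 6 were tested and 0 called, beside 1.81% of all genes, with a median of -0.12. IL1B, the cytokine it releases, was at 1.02 (adjusted p = 0.0781), CASP1 at -0.61 (adjusted p = 0.219) and the adaptor PYCARD at -0.30 (adjusted p = 0.463). NLRC4, with which NAIP assembles, did not pass the filter.

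XAF1 was read beside 26 interferon-stimulated genes, of which 22 were tested, with a median of -0.48. Among the tested genes 1 was called higher and 3 lower, beside 1.25% and 0.561% of all genes. IFIT1, an RNA-binding antiviral protein, had log2 signals of 9.88 and 9.83 with control and 6.34 and 6.18 with embelin, and fell by 3.60 on the log2 scale (adjusted p = 0.0204). IFIT2 fell by 2.80 (adjusted p = 0.0454) and TNFSF10, the death ligand TRAIL, fell by 2.13 (adjusted p = 0.0454). Both had only 1 of 2 embelin arrays well above background, so they passed the filter through the control group alone, where they were high, and the sizes of these 2 falls are uncertain. ISG20, an exonuclease, rose by 1.42 (adjusted p = 0.0496). IFI44L, MX2, OAS2 and RSAD2 did not pass the filter, like XAF1.

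**Figure D3:**
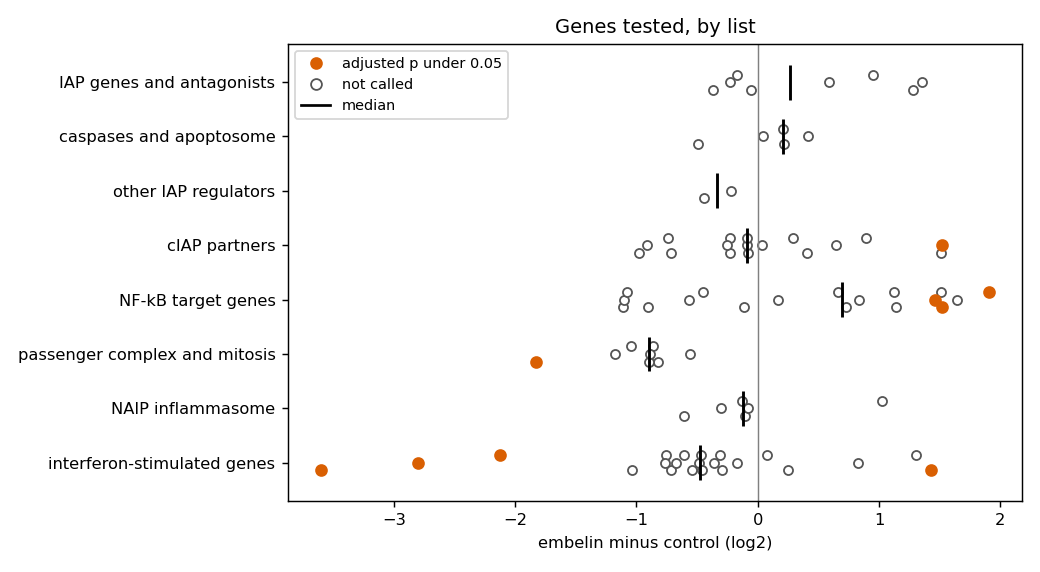
Difference between embelin and control (log2, horizontal axis) of each tested gene, in rows by list, with orange points for an adjusted p under 0.05 (limma), open points for the others and a black line at the median. The IAP genes and antagonists hold no orange point, the 8 genes of the passenger complex and mitosis all lie below 0, and the NF-kB target genes spread to both sides around a median of 0.69.

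With other processing settings the differences of BIRC2, BIRC3, BIRC7 and XIAP stayed above 0 and those of BIRC5, BIRC6 and DIABLO below 0, under the 7 of 16 alternatives that could move a difference (normexp, quantile normalization, the deposited table and each array left out). The others changed only the test for these genes. Each gene had 1 probe, and the blocks and slide column used as alternatives were balanced over the groups. HTRA2 changed sign under 1 of the 7, without control replicate 2.

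**Figure D4:**
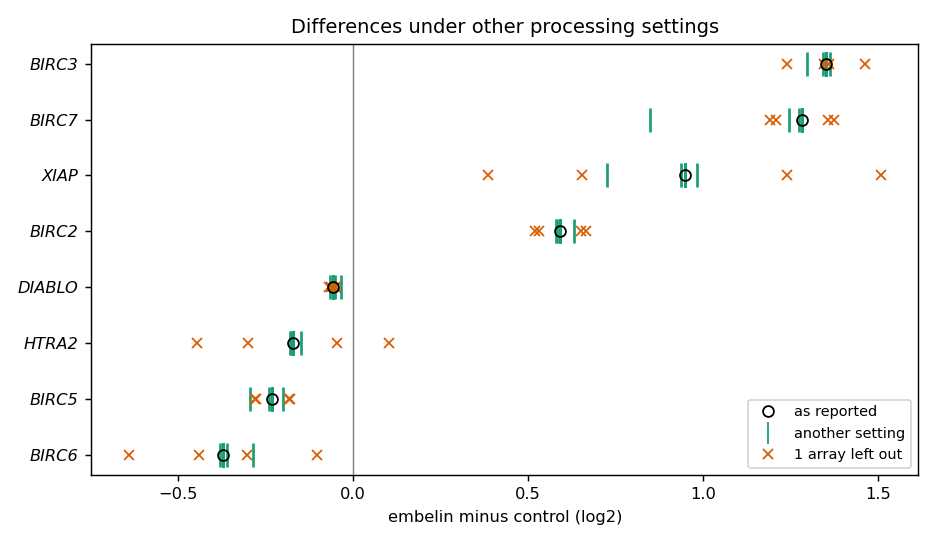
Difference between embelin and control (log2, horizontal axis) of the 8 tested genes as reported (circle), under another processing setting (bar) and with 1 array left out (cross). The crosses of XIAP run from 0.39 to 1.51 and those of HTRA2 lie on both sides of 0, while those of BIRC3 run from 1.24 to 1.46.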

How the data were processed

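RNA of 2 control and 2 embelin samples of A549 cells was labelled with Cy3 and hybridized to 1 Agilent array each. The authors deposited scanner intensities made with Feature Extraction 10.7.3.1 (per the file headers), with background subtracted and trends within each array removed, but not normalized between arrays. Their value table gives these intensities as means over the spots of each probe, apart from 100 to 122 of the 50238 probes per array that differed by more than 0.001 in log2.

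Intensities were scaled to an equal 75th percentile, set to at least 1 and log2-transformed. Outlier spots were left out. A probe was kept where the scanner software called both arrays of either group well above background (26146 of 50238 probes), and the brightest kept probe stood for a gene. Probes were named through RefSeq accessions for 28595 probes, and 19302 kept the name in the files. The groups were compared with limma 3.58.1 under R 4.3.3 (lmFit, then eBayes, with a prior of 2.16 degrees of freedom), with Benjamini-Hochberg adjustment over 17649 genes. The fit was tested on simulated data. The methods' t-test was run on the same values. The 75th percentile and the 2-fold threshold follow the study's methods, and the p under 0.05 its results.

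Named from each list were the genes called (at most 6), and the genes of largest change up to 3 where fewer than 3 were called. Not every gene under this rule or in the marker lists is named here, but all enter the counts. The genes and lists were chosen with earlier results of these data known, and their counts are no independent evidence. Alternatives were normexp (offset 50), quantile normalization, the deposited table, no filter, a filter on all arrays, eBayes with trend and robust, the methods' t-test, blocks for replicate number and for arrays with a like share of probes above background, slide column as a covariate, the mean of a gene's probes, each probe alone, and each array left out. The file headers name build hg18, and no gene coordinates were taken from it. Only 2 arrays per group limit the precision, and the median SD over genes was 0.21 in log2.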

Additional observations from a re-analysis of the deposited data

How the results depend on the processing

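Of the 8 genes tested, 0 were called as reported, 1 with normexp (BIRC3, adjusted p = 0.0269), 1 with trend and robust (BIRC3, adjusted p = 0.00772) and 2 with the filter on all arrays (BIRC3, adjusted p = 0.0256, and BIRC7, adjusted p = 0.0291); under the other settings the count was 0. Past a 2-fold change and an unadjusted p under 0.05 were 2 genes as reported, 1 with normexp and 2 to 3 with 1 array left out (3 without control replicate 1, when XIAP, at 1.51, joined). HTRA2, at -0.17 as reported, was at -0.45 to 0.10 with 1 array left out and above 0 only without control replicate 2 (the cause was not tested). Of all genes, 320 were called as reported, 699 with normexp, 159 from the deposited table, 764 with the filter on all arrays and 1061 with trend and robust. Of the 76 pathway genes, 8 were called as reported, 3 with quantile normalization, 2 from the deposited table, 14 with the filter on all arrays, 22 with trend and robust, and 4 each with the mean over probes and with each probe alone. Both counts were 0 without a filter, with the methods' t-test (2755 genes at an unadjusted p under 0.05), with slide column as a covariate, and, with each array left out in turn, 0 to 0. The labels tie samples of the same number in no other way, and the deviations of 2 samples per group (r = 0.18 by number, -0.18 crossed) do not settle whether they are paired. With the replicate number as a block, 0 genes and 0 pathway genes were called, and BIRC3 had an adjusted p of 0.101. Under that block the SE of XIAP was 0.22 in place of 0.47 and its adjusted p 0.163 in place of 0.367 (limma). With a block for arrays with a like share of probes above background, both counts were also 0. BIRC7 and the dim probes of NAIP and XAF1 are limited by signal over background.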
